A study of Mus musculus with 2 samples.

Results

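The genes described here are 7 regulators of G-protein signalling (RGS), Rgs1, Rgs2, Rgs3, Rgs10, Rgs14, Rgs18 and Rgs19, and the genes of 2 inhibitory alpha subunits (Gi alpha), Gnai2 and Gnai3. They were chosen by name, with earlier results of these data known, through the Ensembl identifiers of these symbols. They make up 9 of the 53801 genes listed in each file. Each of the 9 reached 10 counts or more in both libraries. RNA-seq counts were analysed from 2 sham libraries of sorted brain microglia, each from 1 mouse. No libraries from mice with occlusion of the middle cerebral artery (MCAO) were analysed here, so the data hold 1 group and no comparison between conditions.

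Both mice were male Cx3cr1(CreER/wt) animals on a C57BL/6 background, 8 to 10 weeks old per the labels, while the paper's methods give an older range and both sexes. A Cx3cr1 allele of these mice carries the tamoxifen-inducible Cre recombinase, so the locus of the fractalkine receptor, itself coupled to Gi, is not intact on both chromosomes. Cx3cr1 had 4860 and 3566 CPM (counts per 1000000 counts of a library) in libraries 1 and 2, and whether transcripts of the targeted allele enter these counts is not given in the sources used here. Both mice received tamoxifen at 75 mg/kg/day for 4 days and had sham surgery 14 days after the first injection. Cells of the left hemisphere were sorted 3 days after surgery in the gate CD11c–Ly6G–CD11b+CD45low. The titles name sham surgery and the treatment field of the same samples reads none. No library without Cre or without tamoxifen was analysed here.

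A G protein is a switch built from an alpha subunit and a beta-gamma pair. An activated receptor loads the alpha subunit with GTP, and the signal ends when the alpha subunit hydrolyses it. RGS proteins speed up that hydrolysis and so shorten signalling. Alpha subunits of the Gi class lower cyclic AMP by inhibiting adenylyl cyclase, and in microglia they transmit signals of the ADP receptor P2Y12 and of chemokine receptors, which guide process movement and migration.

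Library 1 held 23381026 counts and library 2 held 41142609. A count of 0 allows up to 3 counts, which is 0.128 CPM in library 1 and 0.0729 CPM in library 2. Genes that reached 10 counts in each library are termed counted genes. Among these 13445 genes, 31.7% differed by over 2-fold in CPM between the 2 mice. Only 5.74% were over 2-fold higher in library 2, and 25.9% were over 2-fold lower. The median log2 ratio of library 2 over library 1 was −0.26. The defining microglia gene Tmem119 was abundant in both libraries, with 7057 and 6229 CPM. Neutrophil markers set library 2 apart, while the markers of other cell types, given below, were mixed. The summed level of 12 neutrophil markers was 4499 CPM in library 1 against 61105 CPM in library 2, and all 12 were over 2-fold higher in library 2. Since RNA came from sorted bulk cells, fewer cells of a type and less RNA per cell cannot be told apart. A p-value is given for no result, because a test on the reads of 2 libraries of 1 group would compare those libraries and not conditions. Intervals below are exact 95% intervals for the counting error of the 2 libraries, and differences between mice come on top of it.

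The 9 genes lie on 7 chromosomes of GRCm38, and 3 of them share a cluster on chromosome 1. Rgs2 (143999338 to 144004161), Rgs1 (144242296 to 144249242) and Rgs18 (144752683 to 144775435), all on the minus strand, lie within 776.1 kb whose only protein-coding genes are 5 RGS genes. The other genes of the cluster, Rgs13 and Rgs21, had 0 counts in both libraries, which allows up to 0.128 and 0.0729 CPM. Of 21 RGS genes searched, 11 are on chromosome 1. Rgs3 is on chromosome 4 (62559847 to 62704001), Rgs10 on chromosome 7 (128373621 to 128418758), Rgs14 on chromosome 13 (55369732 to 55384687) and Rgs19 on chromosome 2 (181688419 to 181693977). Gnai2 is on chromosome 9 (107614125 to 107635367) and Gnai3 on chromosome 3 (108107280 to 108146146). In GENCODE M21, no exon of the 9 genes overlaps an exon of another gene, so reads of an overlapping or antisense gene do not enter these counts by annotation.

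Promoter sequence from RefSeq (GRCm38.p6) was at hand for 5 of the 9 genes, Rgs2, Rgs3, Rgs10, Rgs19 and Gnai3, and not used here for Rgs1, Rgs14, Rgs18 and Gnai2. The 250 bases before the start are shown for Rgs2 and Rgs10, the RGS genes with the highest mean level per exon length, to show that both start from windows of high GC content that hold GC boxes. Capitals mark matches on either strand to the core of the cAMP response element (CRE; TGACG), the AP-1 site (TGANTCA), the CCAAT box (CCAAT), the TATA box (TATAAA) and the GC box (GGGCGG). No marked matches overlap each other. The windows are chr1:144004150-144004399 and chr7:128418173-128418422, both read from the minus strand in the direction of transcription. The starts are those of RefSeq and differ from the gene positions given above. The Rgs10 window lies within the listed gene (128373621 to 128418758). The Rgs2 window overlaps its listed gene, which reaches 144004161.
Rgs2: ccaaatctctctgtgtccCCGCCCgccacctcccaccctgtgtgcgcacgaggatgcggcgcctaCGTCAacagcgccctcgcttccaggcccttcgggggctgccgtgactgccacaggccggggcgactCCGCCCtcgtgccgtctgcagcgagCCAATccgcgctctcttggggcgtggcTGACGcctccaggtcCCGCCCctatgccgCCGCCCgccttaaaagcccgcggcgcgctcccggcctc
Rgs10: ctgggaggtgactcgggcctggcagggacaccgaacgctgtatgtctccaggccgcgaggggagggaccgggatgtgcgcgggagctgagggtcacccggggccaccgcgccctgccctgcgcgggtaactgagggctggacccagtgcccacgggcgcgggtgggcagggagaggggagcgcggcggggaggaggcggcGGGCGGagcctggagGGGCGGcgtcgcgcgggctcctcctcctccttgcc

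The Rgs2 window is 72.4% G or C and the Rgs10 window 76.4%, against a median of 52.4% over all 32851 windows of that length. The Rgs2 window holds 2 CRE cores, which start 185 and 67 bases before the start, 1 CCAAT box and 4 GC boxes. The Rgs10 window holds 2 GC boxes and none of the other motifs. CRE cores are found in 17.8% of all windows, CCAAT boxes in 33.9% and GC boxes in 32.7%. The full CRE (TGACGTCA, in 1.55% of windows) and the AP-1 site (6.75%) were not among the letters of any member's window. The 2 windows of Rgs3, the member with the lowest level per exon length, are 48.4% and 56.8% G or C. Each holds a TATA box, a motif found in 12.4% of windows, and the window of 56.8% also holds a GC box. The Rgs19 windows of 64.8% and 74.8% G or C hold 1 and 2 GC boxes. The Rgs19 window of 54.4% and the Gnai3 window of 59.6% hold none of the motifs. A link between level and motifs was not tested. A match is a description of the letters, and no binding was measured in these cells.

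Rgs10 encodes a small protein that is little more than an RGS domain, and it is known in microglia as a brake on inflammatory signalling. Its counts were 11858 (library 1) and 32058 (library 2), or 507 and 779 CPM (643 ± 192 CPM, SD, n = 2). Both libraries therefore held it at a high level, with library 2 above library 1. The log2 ratio was 0.62 (interval 0.59 to 0.65).

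Rgs2, of the R4 family, acts chiefly on Gq alpha subunits and is known as an early-response gene. It had 10868 and 34758 counts, or 465 and 845 CPM (655 ± 269 CPM, SD, n = 2). The level in library 2 was again higher, by 0.86 on the log2 scale (0.83 to 0.89), which is under 2-fold. The 16 early-response genes, led by Fos (2786 and 5980 CPM) and Jun (3760 and 3312 CPM), summed to 19932 and 23556 CPM. Of these 16 genes, 2 were over 2-fold higher in library 2 and 4 over 2-fold lower, against 5.74% and 25.9% of all counted genes. The part of early-response transcription in the Rgs2 value was not tested.

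Rgs19, also called GAIP, belongs to the RZ family and was found through its binding to Gi alpha. It had 6703 and 13110 counts, or 287 and 319 CPM (303 ± 22.6 CPM, SD, n = 2). The libraries lay close together, with a log2 ratio of 0.15 (0.11 to 0.20). With the TMM or DESeq2 scaling of library totals, in place of plain totals, it was 0.40 and 0.43.

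Rgs1, an R4 gene of lymphocytes and activated myeloid cells that dampens chemokine receptor signalling, differed far more. Its counts were 1403 and 11975, or 60.0 and 291 CPM (176 ± 163 CPM, SD, n = 2). The level in library 2 was 4.85-fold that in library 1, a log2 ratio of 2.28 (2.20 to 2.36). The mean of Rgs1 is therefore set mainly by library 2.

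Rgs18, an R4 gene best known from platelets and their precursors, showed the largest ratio of the 9 genes. It had 192 and 2007 counts, or 8.21 and 48.8 CPM (28.5 ± 28.7 CPM, SD, n = 2). The level in library 2 was 5.94-fold that in library 1, a log2 ratio of 2.57 (2.36 to 2.79), and the SD was as large as the mean.

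Rgs14 carries, besides its RGS domain, a GoLoco motif that holds Gi alpha in its GDP-bound form. It had 604 and 2210 counts, or 25.8 and 53.7 CPM (39.8 ± 19.7 CPM, SD, n = 2). It was just past 2-fold, with a log2 ratio of 1.06 (0.93 to 1.19), so that its counting interval includes ratios under 2-fold.

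Rgs3, an R4 gene with many long and short transcripts, had the lowest mean CPM and the lowest length-scaled level (defined below) of the 9. In library 1 the CPM of Rgs18 was lower still. Rgs3 had 572 and 870 counts, or 24.5 and 21.1 CPM (22.8 ± 2.35 CPM, SD, n = 2). The libraries differed by a log2 ratio of −0.21 (−0.36 to −0.06). GENCODE M21 lists 17 transcripts for it, and gene counts do not tell them apart.

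Gnai2, the main Gi alpha subunit of immune cells, had 26243 and 38393 counts, or 1122 and 933 CPM (1028 ± 134 CPM, SD, n = 2). It was slightly lower in library 2, with a log2 ratio of −0.27 (−0.29 to −0.24). Its paralogue Gnai3 had 2439 and 5867 counts, or 104 and 143 CPM (123 ± 27.1 CPM, SD, n = 2). Gnai3 was higher in library 2, with a log2 ratio of 0.45 (0.38 to 0.52). Reads in stretches that paralogues share could have been split or dropped in the authors' counting.

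**Figure D1:**
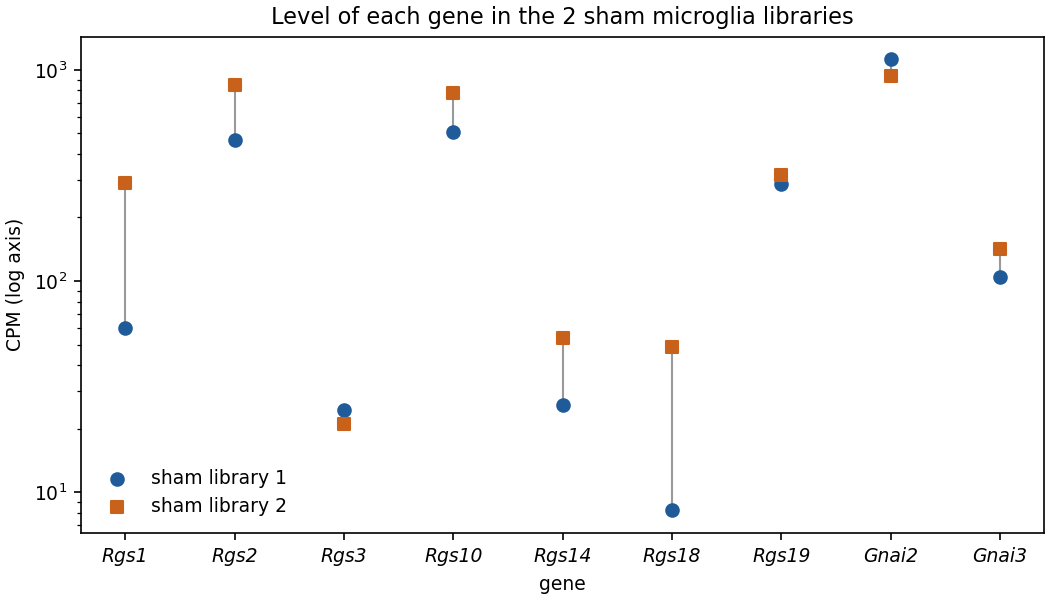
Level of the 9 genes in CPM (log axis) in sham library 1 (circles) and sham library 2 (squares), each from 1 mouse, with a line joining the values of a gene. Rgs1 and Rgs18 have the longest lines, from 60.0 to 291 CPM and from 8.21 to 48.8 CPM, while the points of Rgs19 and Rgs3 lie close together.

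To rank the 9 genes by level, counts were divided by the length of the annotated exons, and all genes were then scaled to 1000000 in each library (length-scaled level). On this scale the order was Rgs10 (843 and 1044 in libraries 1 and 2), Gnai2 (845 and 566), Rgs2 (365 and 534), Rgs19 (366 and 327), Gnai3 (91.0 and 100.2), Rgs1 (24.6 and 96.0), Rgs18 (11.5 and 55.0), Rgs14 (17.3 and 29.0) and Rgs3 (6.44 and 4.49). Of the 8 neighbouring pairs in this order, 5 stood in the same order in both libraries and 3 had ranges that did not overlap. These 3 pairs were Gnai2 above Rgs2, Rgs19 above Gnai3, and Rgs14 above Rgs3. Rgs10 and Gnai2, Rgs2 and Rgs19, and Rgs18 and Rgs14 changed places between the libraries. Gnai3 and Rgs1, and Rgs1 and Rgs18, kept their order with overlapping ranges. With the longest protein-coding transcript as length, Rgs10 stood above Gnai2 in both libraries and Rgs1 above Gnai3 in library 2. The annotated exons of Rgs1 together cover 6947 bases, against 3841 for that transcript. Those of Rgs3 cover 10801 bases, against 4698. With that transcript as length, Rgs3 was still lowest by mean, but in library 1 it (11.2) stood above Rgs18 (8.73). Among the counted genes, Rgs10 stood at percentile 99.1 of the length-scaled level, Gnai2 at 98.8, Rgs2 at 98.1 and Rgs19 at 97.5, and Rgs3 at 37.0. On the CPM scale, where long genes collect more counts, the median percentile of the 9 genes was 93.2.

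The 7 RGS members made up 99.9% of the length-scaled level of 21 RGS genes in each library. They were chosen with earlier results of these data known, so this share describes the choice of genes. Rgs10 alone took 51.6% in library 1 and 49.9% in library 2 (50.7 ± 1.16%, SD, n = 2), a share that varied little between the mice. Rgs2 took 22.3% and 25.5%, and Rgs19 took 22.4% and 15.7%. Rgs10 stood 2.31-fold above Rgs2 in library 1 and 1.96-fold in library 2, or 3.75-fold and 3.17-fold with the longest protein-coding transcript as length. With that length the share of Rgs10 was 60.2% and 58.9%. Rgs1 took 3.05 ± 2.18% (SD, n = 2), most of it from library 2 (4.59%), and Rgs18 took 0.703% and 2.63%. Rgs14 took 1.06% and 1.39%, and Rgs3 0.394% and 0.215%. Among the other 14 RGS genes, only Rgs12 and Rgs4 were counted. Rgs12, a long relative of Rgs10 and Rgs14 in the R12 family, had 115 and 140 counts, a length-scaled level of 1.65 and 0.919. Rgs4, a gene of neurons, had 10 and 26 counts, and the 6 neuron markers summed to 3.21 and 5.37 CPM. Rgs16, an R4 gene, had 2 counts in each library, Rgs5, the RGS gene of pericytes, had 0 and 4, and Rgs6, Rgs8, Rgs13, Rgs21 and Rgs22 had 0 in both libraries.

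**Figure D2:**
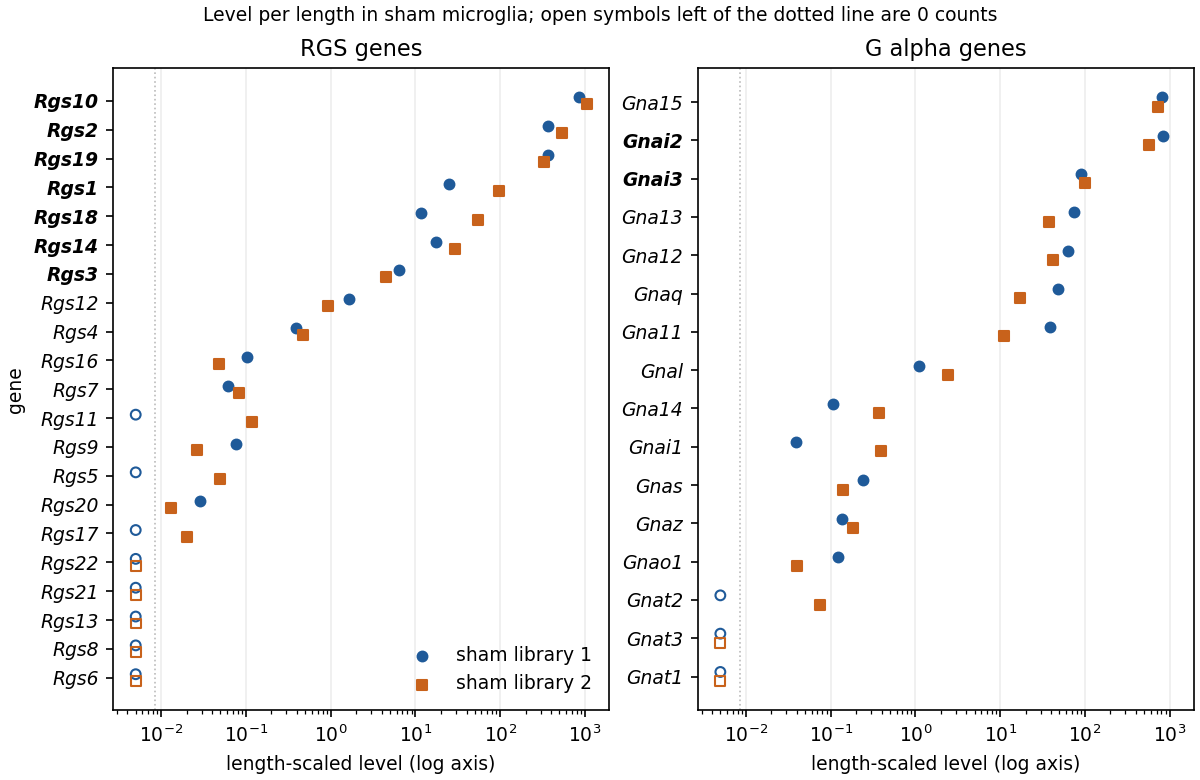
Length-scaled level (counts per base of exon, scaled to 1000000 over all genes, log axis) of 21 RGS genes and 16 G alpha genes in sham library 1 (circles) and library 2 (squares), with the 9 genes in bold and open symbols for 0 counts. The 7 RGS members, chosen with earlier results of these data known, stand above the other 14, and Gnai2 (845 and 566) stands beside Gna15 (816 and 726).

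Among 16 G alpha genes, Gnai2 and Gnai3 together took 47.3% of the length-scaled level in library 1 and 44.3% in library 2. Gnai2 alone took 42.7% and 37.6%, and Gnai3 took 4.60% and 6.66%. With the longest protein-coding transcript as length, Gnai2 took 54.1% and 48.9%. Gnai2 was 9.29-fold the level of Gnai3 in library 1 and 5.65-fold in library 2, or 15.8-fold and 9.64-fold with that length. The third inhibitory paralogue, Gnai1, had 1 and 22 counts, and Gnao1 and Gnaz, alpha subunits of neurons and platelets in the same class, had 11 and 8 counts and 4 and 12 counts. Gna15, a Gq-class subunit of blood cells, stood beside Gnai2. Its length-scaled level was 816 and 726, and Gnai2 was 1.04-fold of it in library 1 and 0.779-fold in library 2, so that the order changed between the mice. With the longest protein-coding transcript as length, Gnai2 was above Gna15 in both, by 1.62-fold and 1.22-fold. Gna13 (56.6 ± 26.4, SD, n = 2) and Gna12 (62.4 and 42.5), which signal to the actin cytoskeleton, followed Gnai3. Of the 14 other G alpha genes 7 were counted. Of these 7, 1 was over 2-fold higher in library 2 and 2 over 2-fold lower, against 5.74% and 25.9% of all counted genes. The median log2 ratio of the 7 was −0.47, the value of Gnas. It turned to 0.32 after adjustment for GC content and length (described below). Where 9.70% of all genes were then over 2-fold higher and 12.7% lower, 1 of the 7 G alpha genes was higher and 0 lower. Those with the largest ratios were Gna11, a Gq-class subunit (55.8 and 19.9 CPM, log2 ratio −1.49, adjusted −0.68), and Gnal, the olfactory stimulatory subunit (4.32 and 11.7 CPM, log2 ratio 1.44, adjusted 2.42), whose exons overlap those of Mppe1 over 852 bases. Exons of Gna12 overlap those of Amz1 on the other strand over 456 bases. Gnas, the stimulatory alpha subunit, is listed with 22 and 28 counts, and was added after its values were seen. Its exons overlap those of Gm20721 over 1469 bases and of Nespas over 988 bases, and how such reads were counted is not given in the sources used here. If reads of Gnas were left out by that counting, the shares given for the other G alpha genes would be too high.

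The difference between the mice was then set against all counted genes. Of the 9 genes, 7 had a higher CPM in library 2, against 38.5% of all counted genes. The RGS genes Rgs1, Rgs14 and Rgs18 were over 2-fold higher in library 2 (3 of 9, against 5.74% of all counted genes), and none was over 2-fold lower (against 25.9%). In either direction 3 of 9 passed 2-fold, near the 31.7% of all counted genes. The median log2 ratio of the 9 genes was 0.62 and that of all counted genes was −0.26. The ratio of Rgs18 was larger in size than that of 96.4% of counted genes and that of Rgs1 than 94.4%, whereas Gnai2 stood at percentile 24.9 and Rgs19 at 14.3. With TMM or DESeq2 scaling, which moved the median of all genes to −0.013 and 0.012, Rgs2 also passed 2-fold, so that 4 of 9 were over 2-fold higher against 8.78% and 9.28% of all counted genes, and Gnai2 had a log2 ratio of −0.017 and 0.0083. Rgs3 changed sign with both scalings.

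**Figure D3:**
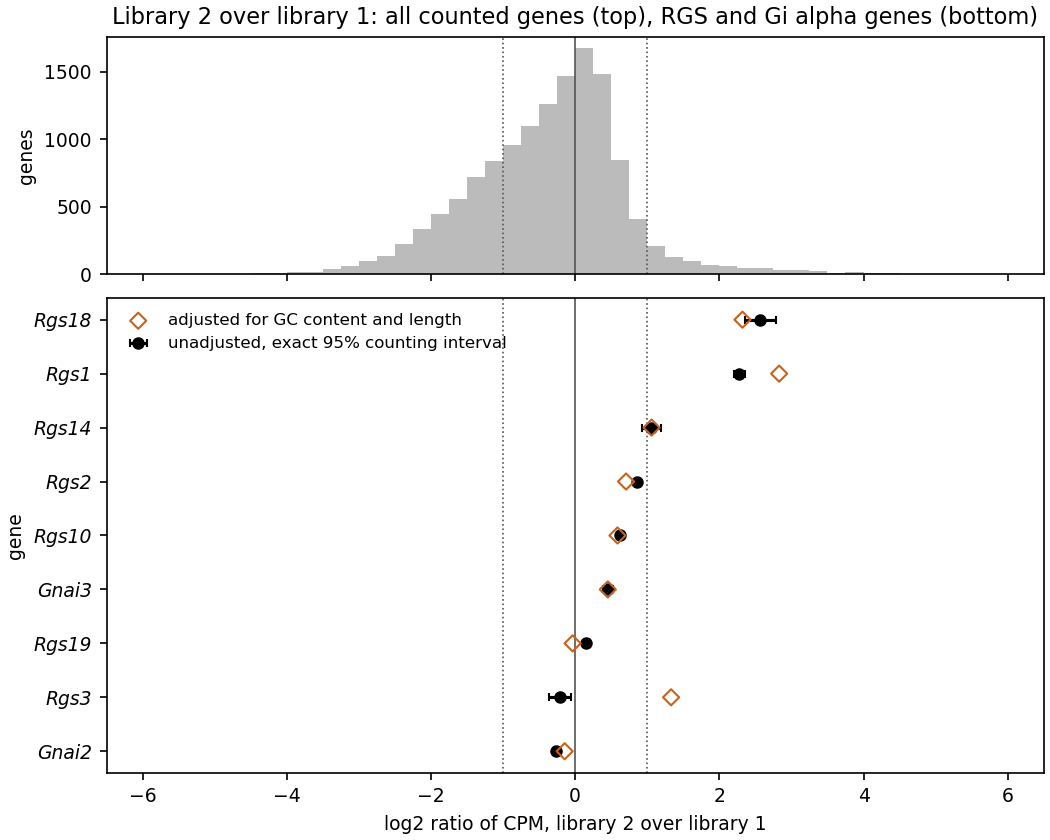
Top, histogram of the log2 ratio of CPM (library 2 over library 1) of counted genes, and bottom, the ratio of each of the 9 genes with its exact 95% counting interval (filled circles) and after adjustment for GC content and length (open diamonds), with dotted lines at 2-fold. Rgs18 (2.57) and Rgs1 (2.28) lie far right of most genes, and the diamond of Rgs3 lies at 1.33, away from its circle at −0.21.

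The ratio between the libraries moved with transcript length across all genes. In 10 bins by length, the median log2 ratio was 0.17 for counted genes whose longest transcript had 1657 to 2143 bases and −1.05 for those of 6443 bases or more. It also moved with GC content, from −0.13 in the lowest of 10 bins to −0.64 in the highest. The members spread over both properties. Rgs18 and Rgs1 have the lowest GC content, 33.4% and 35.9% of the longest transcript, and Gnai2 the highest, 56.7%. The bins use the longest transcript, which for Rgs1 has 5843 bases, in a bin with a median of −0.96. Its longest protein-coding transcript has 3841 bases, a length in a bin with a median of −0.49. The adjusted ratio of Rgs1 rests on the first of these lengths. After the median ratio of genes of like GC content and length was subtracted, the log2 ratio was 2.83 for Rgs1, 2.32 for Rgs18 and 1.06 for Rgs14, so that each stayed past 2-fold. That of Rgs3 went from −0.21 to 1.33, past 2-fold in the other direction. Rgs19 went to −0.035, and the other 4 genes kept their sign and stayed under 2-fold. After this adjustment 9.70% of genes were over 2-fold higher in library 2 and 12.7% over 2-fold lower.

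**Figure D4:**
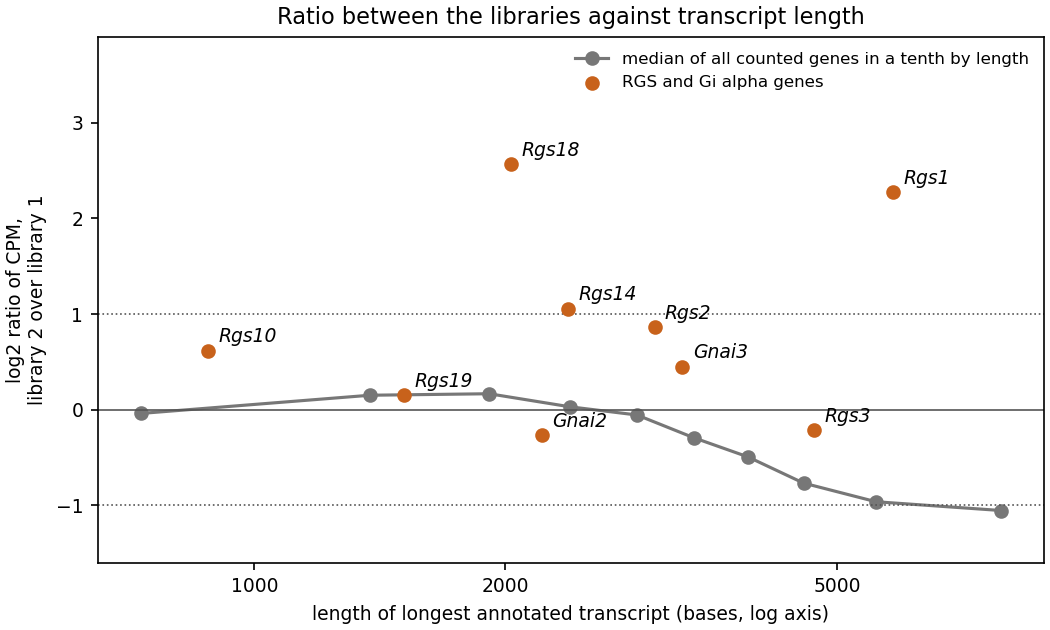
Log2 ratio of CPM (library 2 over library 1) against the length of the longest annotated transcript (bases, log axis) for the 9 genes (labelled points), with the median of all counted genes in each of 10 bins by length (grey line). The grey line falls from 0.17 among genes of 1657 to 2143 bases to −1.05 in the longest bin. Rgs1, drawn at its longest transcript of 5843 bases, stands at 2.28 in a bin whose median is −0.96. Its longest protein-coding transcript has 3841 bases.

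Markers of microglia and of other cell types were set beside the ratios of the members. The neutrophil markers were 13.6-fold higher in sum in library 2, with Ngp at 749 and 16031 CPM and S100a8 at 1396 and 14266 CPM. The 6 monocyte markers summed to 901 and 3402 CPM, most of it from Chil3 (455 and 2901 CPM). Of these 6, Chil3 and Ly6c2 were over 2-fold higher in library 2, F13a1 was over 2-fold lower (225 and 64.7 CPM), and the median log2 ratio was 0.031. The 8 platelet markers summed to 125 and 126 CPM, almost wholly from Pf4 (79.8 and 64.5 CPM) and Gp9 (43.6 and 60.6 CPM). The platelet genes Ppbp, with 4 counts in each library, and Gp6, with 0, were near the floor in both. The 6 B cell markers summed to 52.6 and 57.5 CPM, nearly all from Cd79b (52.1 and 55.4 CPM). T or NK cell markers had 3 and 150 counts in sum, with Cd3e at 0 in both libraries. The 6 border macrophage markers summed to 406 and 211 CPM. Of them 4 were lower in library 2 and 2 higher, with Mrc1 (190 and 42.7 CPM) and Cd163 (48.5 and 10.8 CPM) over 2-fold lower. The 8 markers of pericytes or endothelial cells summed to 3.29 and 1.29 CPM. Microglia markers summed to 31456 and 37740 CPM. Of these, 5 were higher in library 2 and 3 lower, with Sall1 over 2-fold lower (337 and 146 CPM). The 12 neutrophil markers thus moved in the same direction as the 7 members that were higher in library 2, Rgs1 and Rgs18 among them. The part of the neutrophil markers in these values was not tested. The part of the monocyte markers, whose directions were mixed, was not tested either. Without library 2 the levels are those of library 1, 60.0 CPM for Rgs1 and 8.21 CPM for Rgs18, both above the limit of a count of 0.

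Partners of the Gi alpha subunits were read from lists of named genes. Of 17 genes of beta and gamma subunits, 12 were counted, with a median log2 ratio of −0.43. Of the 12, 2 were over 2-fold lower in library 2 and none higher, against 25.9% and 5.74% of all counted genes. After adjustment for GC content and length, 2 were over 2-fold lower and none higher, against 12.7% and 9.70% of all genes. Gnb1, a main beta subunit, had 5327 and 1211 counts, a length-scaled level of 152 and 15.8 and a log2 ratio of −2.95, the largest in size among them. After adjustment for GC content and length it was −2.65. The gamma genes Gng5 (163 and 143) and Gngt2 (164 and 136) held steadier length-scaled levels. Exons of Gngt2 overlap those of Abi3 on the other strand over 234 bases. The other counted gene over 2-fold lower was Gng7, with a log2 ratio of −1.56.

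Of 7 genes for chaperones and GoLoco proteins, which fold alpha subunits or hold them in the GDP-bound form, 5 were counted. Of these 5, 1 (Gpsm2) was over 2-fold higher and 2 lower in library 2, against 5.74% and 25.9% of all counted genes. The median log2 ratio of the 5 was −0.22. Adjusted for GC content and length, 1 was over 2-fold higher and 1 lower, against 9.70% and 12.7% of all genes. Ric8a, the chaperone of Gi and Gq alpha subunits, had 106 and 109 CPM, and its exons overlap those of Sirt3 over 418 bases and of Bet1l over 390 bases. Gpsm3 and Gpsm1, which bind Gi alpha through GoLoco motifs as Rgs14 does, had log2 ratios of −1.17 and −1.06, against 1.06 for Rgs14. The adjusted ratio of Gpsm1 was 0.09, and exons of Gpsm3 overlap those of Pbx2 over 227 bases.

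Receptor kinases and arrestins switch off the receptors themselves, upstream of the step at which RGS proteins act. Of 7 such genes, all counted, 4 were over 2-fold lower in library 2 and 1 (Grk4) over 2-fold higher. Among all counted genes 25.9% were lower and 5.74% higher by that fold. The median log2 ratio of the 7 genes was −1.37 and was −0.43 after adjustment. With the adjustment, 1 of the 7 was over 2-fold lower and 2 higher, against 12.7% and 9.70% of all genes. Arrb2 (191 and 73.9 CPM) and Grk2 (111 and 39.6 CPM) had the highest length-scaled levels, followed by Grk6 (12.7 and 5.30 on that scale) and Arrb1 (14.2 and 3.67), which changed places between the libraries. Arrb1 and Grk3 had the largest ratios, −1.64 and −1.63. Adjusted for GC content and length, the ratios were −1.42 for Arrb2, −0.67 for Grk2, −0.21 for Arrb1 and −0.43 for Grk3.

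Adenylyl cyclases are the enzymes that Gi alpha subunits inhibit. Of 9 genes, 6 were counted, with a median log2 ratio of −0.85 that was 0.55 after adjustment. Of the 6, 2 were over 2-fold lower in library 2 and none higher, against 25.9% and 5.74% of all counted genes. With the adjustment, none was over 2-fold lower and 1 was higher, against 12.7% and 9.70% of all genes. Adcy7, the cyclase of blood cells, led with 3578 and 3646 counts, or 153 and 88.6 CPM. Adcy9 (11.0 and 3.11 CPM) and Adcy3 (9.54 and 1.82 CPM) had log2 ratios of −1.82 and −2.39, which were −0.090 and −0.66 after adjustment. Exons of Adcy3 overlap those of Cenpo over 1380 bases.

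The receptors that feed Gi had the highest summed level of the pathway lists, 16388 and 17269 on the length-scaled scale. Of 20 genes, all counted, 4 (Fpr1, Fpr2, Ccr1 and P2ry14) were over 2-fold higher in library 2 and 2 (Adora1 and Adora3) over 2-fold lower. Among all counted genes 5.74% were higher and 25.9% lower by that fold. The median log2 ratio of the 20 receptor genes was 0.16. Adjusted for GC content and length, 4 were over 2-fold higher and 1 lower, against 9.70% and 12.7% of all genes. P2ry12 (5111 and 6706), Gpr34 (2655 and 3733) and P2ry13 (3144 and 2814) led by mean length-scaled level, each several times above Gnai2. Cx3cr1 (3069 and 1814) came next by mean and stood above Gpr34 in library 1. The largest ratios were those of the formyl peptide receptors of neutrophils, Fpr2 (91 and 1666 counts, log2 ratio 3.38) and Fpr1 (452 and 6539 counts, log2 ratio 3.04), in the library with the higher neutrophil markers.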

How the data were processed

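Counts were analysed from 2 sham libraries, mapped to their group by title. The labels name HISAT2, HTSeq and GRCm38, and per the methods cDNA was made from total RNA with a SMART-Seq kit and tagmented. The authors deposited raw counts per Ensembl gene without normalization, and versions, annotation release and strand setting are not given in the sources used here. Gene starts, which count from 0 in the files, were raised by 1.

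The members and gene lists were chosen with earlier results of these data known. Symbols, exon lengths, transcripts and GC content came from GENCODE M21 (GRCm38), in which 53706 of 53801 identifiers had a symbol. CPM was counts divided by the library total, times 1000000. Ratios have exact (Clopper-Pearson) 95% intervals from the share of summed counts in library 2. The adjustment subtracted the median log2 ratio of counted genes in the same of 10 bins of GC content and 10 of length (GC bin alone under 20 genes). Named genes were the members, in each pathway list the 3 with the highest length-scaled level and the 2 with the largest ratio among those with a mean of at least 100 counts, the 2 most abundant markers of each list, overlapping genes and nearest genes, of which some are not reported here. Names in marker lists that are at or near 0, and Gnai1, Gnao1, Gnaz, Rgs5 and the RGS genes at 0, were added after their values were seen. So were Cx3cr1, Gnas, Gpsm2, Grk4, Ccr1, P2ry14, Adora1, Adora3, F13a1, Cd163 and Sall1. The longest protein-coding transcript as length was an alternative chosen after seeing the data. TMM (edgeR 4.0.16) and DESeq2 1.42.0 gave alternative scaling only. The ratios, the calls and the adjustment were tested on simulated data. The simulated counts held set ratios and counting error, without other differences between mice, and the adjustment was tried on a trend with length. How the calls and intervals hold under differences between mice is therefore not shown by them. R 4.3.3, Python 3.11.15, pandas 2.3.3, scipy 1.17.1 and matplotlib 3.10.9 were used.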

Additional observations from a re-analysis of the deposited data

How the results depend on the processing

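No paired analysis was possible because both samples are of 1 group. With 2 libraries, leaving one out stays within 1 SD by construction and says nothing about stability. The summed level of the 9 genes was 2604 to 3433 CPM with a library left out, their median percentile 86.8 to 96.6, and of the 8 neighbouring pairs 5 to 8 kept the order (5 without library 2 and 8 without library 1). The median log2 ratio of the 9 genes, 0.62, was 0.87 with TMM and 0.89 with DESeq2 scaling, and 0.71 after the GC and length adjustment. The number of genes over the fold, 3 of 9, was 5 at 1.5-fold and 2 at 3-fold, where 50.9% and 15.7% of all counted genes passed. It was 4 with TMM, with DESeq2 scaling and with the adjustment, with Rgs2 added by the first 2 and Rgs3 by the last, against 8.78%, 9.28% and 9.70% of genes higher and 19.7%, 19.0% and 12.7% lower, and was 3 with totals without mitochondrial or neutrophil genes. Small ratios changed sign. Rgs3 was 0.040 with TMM, 0.064 with DESeq2 scaling and 1.33 with the adjustment, Gnai2 was 0.0083 with DESeq2 scaling, and Rgs19 was −0.035 with the adjustment. The cause was not tested. Using the longest protein-coding transcript as length, an alternative chosen after seeing the data, gave the same order in both libraries for 5 of the 8 pairs too, but not for the same 5: Gnai3 over Rgs1 was lost and Rgs10 over Gnai2 was gained. Depth limits the RGS genes with 0 counts to the floors given above.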

Other observations

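Each Gi alpha gene shares its chromosome with a transducin gene of photoreceptor or taste cells, at the distances given here. Gnat1 lies 39.1 kb from Gnai2 on chromosome 9 and had 0 counts in both libraries, beside 26243 and 38393 for Gnai2. Gnat2 lies 5.8 kb from Gnai3 on chromosome 3 and had 0 and 4 counts, beside 2439 and 5867 for Gnai3. Gnat3 lies 245.3 kb from Gnai1 on chromosome 5 and had 0 counts in both libraries.

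The counted genes nearest to Rgs2, by Euclidean distance of log2 CPM over the 2 libraries, were Glul (495 and 802 CPM, distance 0.12), Dazap2 (511 and 863 CPM, distance 0.14) and Rac2 (480 and 934 CPM, distance 0.15). Those nearest to Gnai2 were Hsp90ab1 (1161 and 873 CPM, distance 0.11), mt-Co1 (1138 and 861 CPM, distance 0.12) and F11r (1047 and 1001 CPM, distance 0.14). With 2 libraries this is a likeness of CPM alone, which is not divided by length.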
